A study of Mus musculus with 4 samples.

Results

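The smooth muscle contractile genes described here are Acta2, Actg2, Myh11, Tagln, Cnn1, Des, Smtn, Myocd, Lmod1 and Synpo2, chosen by name, and all 10 were found by exact symbol among the 17335 genes of the deposited table. They were picked with their levels in these libraries already known, so their levels and ratios are given as a description, with no test. RNA-Seq was performed on gonadal white adipose tissue (gWAT) of female mice after 18 weeks on a high-fat diet (HFD). The control mice were fl/fl littermates, which carry floxed Dnmt1 alleles and keep the gene intact. The AD1KO mice carry the same floxed Dnmt1 alleles with a Cre transgene driven by the adiponectin promoter, which is active mainly in mature adipocytes. Each library was made from the mixed RNA of 4 mice of a group, so there is 1 library per group and no measure of the spread between animals. The ages of the mice were not given in the sources used here, and the reduced representation bisulfite libraries of the series were not analysed here.

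Smooth muscle cells shorten when myosin thick filaments pull on actin thin filaments that are anchored to dense bodies and to desmin intermediate filaments. Calcium and calmodulin start this by activating myosin light chain kinase, and myosin phosphatase and its inhibitors set how long it lasts. The genes of this apparatus share a transcriptional switch, serum response factor (SRF) with its coactivator myocardin, which binds DNA at CArG boxes. In fat pads, such cells are known mainly from the walls of arteries and veins. Mesothelial cells, fibroblasts and pericytes can carry part of the same program, and gonadal fat of females lies against the uterine horns and oviducts, whose walls hold visceral smooth muscle.

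RefSeq promoter sequences, each running from 250 bases before the transcription start to 50 bases after it, were at hand for 6 of the 10 genes, in a table of build GRCm38.p6. Actg2, Myh11, Tagln and Myocd had no entry. Windows for Acta2 and Lmod1 are shown because each holds a pair of sequences within 1 mismatch of the CArG box, which reads the same on both strands, and these are in capitals. Both windows were placed on mm9, the build used for alignment, by exact match. The Acta2 stretch lies at chr19:34329874-34329983 on the minus strand, from 120 to 11 bases before the start, and the Lmod1 stretch at chr1:137221180-137221249 on the plus strand, from 210 to 141 bases before the start.
Acta2: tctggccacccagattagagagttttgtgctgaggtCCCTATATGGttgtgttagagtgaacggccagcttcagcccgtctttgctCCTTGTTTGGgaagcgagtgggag
Lmod1: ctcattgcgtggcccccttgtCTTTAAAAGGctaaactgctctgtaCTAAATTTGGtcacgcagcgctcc

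None of the 6 windows held an exact CArG box, against 1.63% of 32841 promoter windows of the same length. A sequence within 1 mismatch of it was found in 2 of the 6 windows, against 21.1% of all windows, and a pair or more of them in the same 2, against 3.7% of all. The sites begin 84 and 34 bases before the start of Acta2 and 189 and 164 bases before that of Lmod1. The windows of Cnn1, Des, Smtn and Synpo2 held none, which says only that these letters are not in these windows. The letters CATTCC, read on either strand and known as the MCAT element bound by TEAD factors, were in the windows of Acta2, Lmod1 and Smtn, against 14.7% of all windows. CpG dinucleotides, the substrate of Dnmt1, numbered 6 in the windows of Acta2 and Cnn1, 7 in Lmod1, 11 in Des and Smtn and 17 in Synpo2, beside a median of 7 over all windows. Synpo2 had the most CpGs of the 6, and 68.6% of all windows had fewer. DNA methylation at these windows was not analysed here.

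Expression was deposited as FPKM, fragments scaled to transcript length and library size, so levels can be set side by side between genes of a library. Between libraries, ratios of FPKM also depend on the scaling chosen, by up to 0.56 on the log2 scale among the scalings given below. Low FPKM values stepped in whole reads, which put the depth at about 17.7 M reads for fl/fl and 17.5 M for AD1KO and allowed reads to be estimated for each gene. The exact 95% counting intervals below were built from these reads and leave out all error but that of counting. Each log2 ratio is AD1KO over fl/fl on FPKM plus 0.01. A log2 ratio of 0.5 or more counts as higher and one of -0.5 or less as lower. Dnmt1 itself was at 6.99 FPKM in the fl/fl and 3.33 FPKM in the AD1KO library, a log2 ratio of -1.07 (counting interval -1.28 to -0.87). The deletion takes out only some exons of Dnmt1, so the level over the whole transcript checks the label only in part. The tissue also holds cells other than adipocytes, and their part in this ratio was not tested. The tissue carried its label, as the fatty acid binding protein Fabp4 was at 11151.42 and 15919.51 FPKM, the highest of the adipocyte markers.

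All 10 genes had a log2 ratio above 0, against 45.3% of the 15839 genes that reached 0.1 FPKM in a library, a filter that all 10 passed. The ratio was at least 0.5 for 7 of the 10, against 14.3% of all tested genes, and at or below -0.5 for 0 of the 10, against 19.1%. At a ratio of 1 or more there were 5 of the 10, against 5.75%, and at -1 or less 0, against 8.95%. The median of the 10 ratios was 1.03 and that of all tested genes was -0.04. The whole counting interval lay above 0 for 9 of the 10, against 21.5%, and above 0.5 for 6, against 4.2%. It lay below 0 for 0 of the 10, against 29.0%, and below -0.5 for 0, against 8.31%. These counts were known when the genes were chosen, so nothing is read from them. Summed over the 10 genes, FPKM was 274 in fl/fl and 536 in AD1KO, a fold of 1.96. In whole tissue, a different number of cells of a type and a different amount of RNA per cell cannot be told apart.

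**Figure D1:**
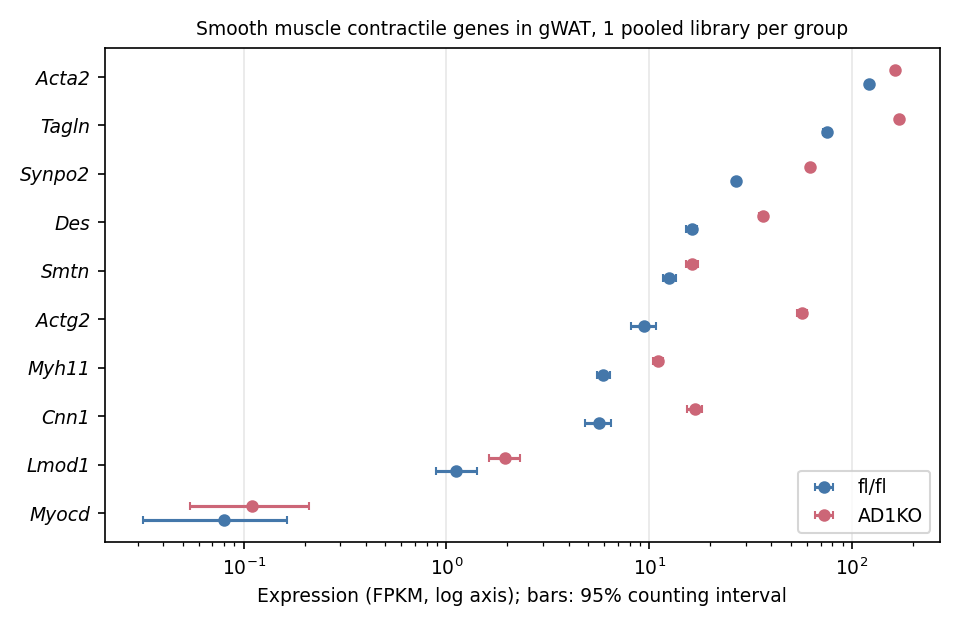
Expression of the 10 genes in FPKM (log axis), ordered by their level in fl/fl, with fl/fl in blue and AD1KO in red and bars for the 95% counting interval of each library. Every red point lies to the right of its blue point, the Actg2 pair is the farthest apart, and the Smtn and Acta2 pairs are the closest.

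Of the thin filament actins, Acta2 (gene 11475, chromosome 19, 34315580 to 34329826, minus strand), the alpha-actin of vascular smooth muscle that activated myofibroblasts also make, was at 120.61 FPKM in the fl/fl and 163.69 FPKM in the AD1KO library. Its log2 ratio of 0.44 came from about 5229 and 7045 reads, with an interval from 0.39 to 0.49. Acta2 was the most abundant of the 10 in fl/fl, yet its ratio was among the smallest and its whole interval lay under the 0.5 threshold. Actg2 (gene 11468, chromosome 6, 83462899 to 83486259, minus strand), the gamma-actin best known from gut, bladder and uterine muscle, was at 9.41 FPKM in the fl/fl and 56.8 FPKM in the AD1KO library. Its log2 ratio of 2.59, or 6.03-fold, was the largest of the 10, from about 203 and 1219 reads with an interval from 2.38 to 2.82. Ordered from the highest ratio down, Actg2 ranked 227 among the 15839 tested genes.

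The intervals of these actins lie far apart, so they differed from each other by more than counting error. Actg2 made up 7.24% of the summed FPKM of Acta2 and Actg2 in fl/fl and 25.8% in AD1KO. The log2 of the Actg2 to Acta2 ratio differed by 2.15 between libraries (95% counting interval 1.93 to 2.37), a value that does not depend on how the libraries are scaled. Reads shared between near-identical actin copies could blur such a split. Of the 50-base words in the longest annotated Acta2 transcript, 0.404% also occur in another protein-coding gene, which is Actg1, and 0.0% of those in Actg2 do. The annotated Acta2 transcript has 1781 bases and the deposited length is 2572, so part of what the authors counted was not compared.

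Among the proteins that dress the thin filament, Tagln (gene 21345, chromosome 9, 45737711 to 45744141, minus strand), encoding the actin-bundling protein transgelin or SM22 alpha, was at 75.49 FPKM in the fl/fl and 170.96 FPKM in the AD1KO library. That is a log2 ratio of 1.18 (interval 1.1 to 1.26) from about 1958 and 4402 reads. The annotated Tagln gene overlaps Pcsk7 on the opposite strand, and whether counting used strand is not given in the sources used here. Cnn1 (gene 12797, chromosome 9, 21903725 to 21914074, plus strand), encoding calponin, which binds actin and slows the myosin motor, was at 5.64 and 16.74 FPKM. Its log2 ratio of 1.57 (interval 1.33 to 1.82), or 2.96-fold, was the next largest after Actg2.

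Smtn (gene 29856, chromosome 11, 3417526 to 3440615, minus strand) encodes smoothelin, an actin-binding protein of fully contractile smooth muscle cells. It was at 12.58 FPKM in the fl/fl and 16.29 FPKM in the AD1KO library, a log2 ratio of 0.37 (counting interval 0.23 to 0.52), the smallest ratio of the 10. Lmod1 (gene 93689, chromosome 1, 137221384 to 137264642, plus strand) encodes leiomodin, which nucleates actin filaments. It stood at 1.12 and 1.94 FPKM, with about 76 and 130 reads, and the counting interval of its log2 ratio, 0.79, spans the threshold, reaching from 0.37 to 1.21. Both genes overlap annotated noncoding genes on the opposite strand, as does Des. On either side of the 0.5 threshold stood Acta2 at 0.44 and Lmod1 at 0.79.

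The motor and the scaffold were higher in AD1KO as well. Myh11 (gene 17880, chromosome 16, 14194620 to 14291501, minus strand), the smooth muscle myosin heavy chain and a marker largely restricted to the lineage, was at 5.95 FPKM in the fl/fl and 11.03 FPKM in the AD1KO library. Its log2 ratio was 0.89 (interval 0.75 to 1.03), from about 690 and 1269 reads. Des (gene 13346, chromosome 1, 75356904 to 75365154, plus strand), encoding the muscle intermediate filament desmin, stood at 16.19 FPKM in fl/fl against 36.26 in AD1KO, a log2 ratio of 1.16 (interval 1.05 to 1.28). Synpo2 (gene 118449, chromosome 3, 122779437 to 122939067, minus strand), encoding the actin-bundling protein synaptopodin-2, was at 26.92 and 61.92 FPKM. It gave about 4076 and 9306 reads and the narrowest interval of the 7 higher genes, at a log2 ratio of 1.2 (counting interval 1.15 to 1.26). The ratios of Synpo2, Tagln and Des lay within counting error of each other, at 2.3-, 2.26- and 2.24-fold.

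Myocd (gene 214384, chromosome 11, 64990063 to 65083491, minus strand), encoding myocardin, was near the limit of detection. It was at 0.08 FPKM in the fl/fl and 0.11 FPKM in the AD1KO library, about 7 and 10 reads, and it passed the 0.1 FPKM filter only through AD1KO. Rounding of the deposited value alone is worth 0.44 reads at this length. Counting error alone lets its log2 ratio of 0.42 lie anywhere between -1.02 and 2.16, and no difference could be detected at this depth.

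The order of levels differed between the libraries. In fl/fl, Acta2 stood above Tagln, followed by Synpo2, Des, Smtn and Actg2, then Myh11 and Cnn1, whose counting intervals (5.52 to 6.42 and 4.85 to 6.5 FPKM) overlap, and last Lmod1 and Myocd. In AD1KO, Tagln and Acta2 led with overlapping intervals (166 to 176 and 160 to 168 FPKM), followed by Synpo2 and Actg2. Actg2 thus moved from the sixth place to the fourth, and its interval in AD1KO, 53.7 to 60.1 FPKM, ended just under that of Synpo2, 60.7 to 63.2. Des came next, then Cnn1 and Smtn with overlapping intervals (15.4 to 18.2 and 15.2 to 17.4 FPKM), then Myh11, Lmod1 and Myocd.

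The muscle form of each protein was also set against its relatives within the same library, a comparison chosen after the values were seen that needs no scaling between libraries. Tagln made up 17.8% of the summed FPKM of Tagln and Tagln2 in fl/fl and 48.1% in AD1KO, with Tagln2, the form of leukocytes and many other cells, at 347.7 and 184.35 FPKM. The log2 of the Tagln to Tagln2 ratio differed by 2.09 (interval 2.0 to 2.19). Cnn1 was 5.8% of the 3 calponins in fl/fl and 19.3% in AD1KO. Myh11 was 12.7% and 23.9% of the summed FPKM of Myh9, Myh10, Myh11 and Myh14, while the non-muscle heavy chains together went from 41.05 to 35.21 FPKM. Des was 1.28% of Des and Vim together in fl/fl and 3.64% in AD1KO, with vimentin (Vim), the intermediate filament of fibroblasts and immune cells, at 1250.0 and 960.2 FPKM.

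Tpm2, the beta-tropomyosin of muscle, was 3.13% and 7.85% of the 4 tropomyosins. Acta2 and Actg2 together were 3.47% of the summed FPKM of 6 actin genes in fl/fl and 8.65% in AD1KO. The other 4 actins are the cytoplasmic Actb and Actg1 and the striated muscle Acta1 and Actc1. The log2 ratio of the smooth muscle or muscle form to its relatives was higher in AD1KO, beyond counting error, in these 6 families (transgelins, calponins, myosin heavy chains, desmin with vimentin, tropomyosins and actins), by 1.11 (interval 0.97 to 1.26) for Myh11 up to 2.09 for Tagln. For Synpo2 against Synpo it was 1.45 (interval 1.2 to 1.7), and for Myocd against Mkl1 and Mkl2 1.03 with an interval from -0.37 to 2.43 that includes 0. Several of the other forms are known from macrophages, whose markers were lower in AD1KO, as given below, and the part of those cells in these shares was not tested.

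**Figure D2:**
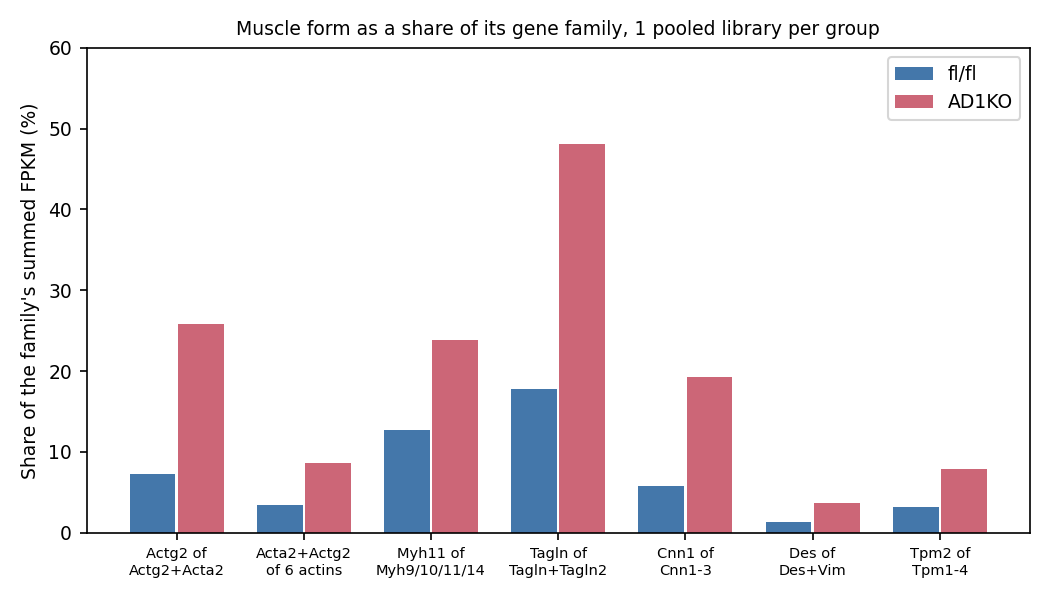
Share of a gene family's summed FPKM taken by its smooth muscle or muscle form, in percent, in fl/fl (blue) and AD1KO (red), 1 pooled library each with no error bars. The Actg2 pair is instead its share of Actg2 and Acta2, both smooth muscle actins. The red bar is the higher in each pair, with Tagln at 17.8% and 48.1% and Actg2 at 7.24% and 25.8%.

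The wider contractile apparatus was mixed. Of 39 listed partners in the table, 13 were higher and 5 lower, with 21 between, and the median log2 ratio was 0.31. That is 33.3% higher and 12.8% lower, beside 14.3% and 19.1% of all tested genes. Myl9, the regulatory light chain that the kinase phosphorylates in smooth muscle, was at 48.75 FPKM in the fl/fl and 94.19 FPKM in the AD1KO library, a log2 ratio of 0.95 (counting interval 0.83 to 1.07). Tpm2 was at 14.19 and 30.78 FPKM (log2 ratio 1.12), and the Z-line and actin-associated genes Ldb3 and Pdlim3 had log2 ratios of 1.09 and 1.03. The most abundant partner, the essential light chain Myl6, which non-muscle cells share, stood at 1608.03 FPKM in fl/fl against 1658.96 in AD1KO, a log2 ratio of 0.04. Tagln2 and the brain-type creatine kinase Ckb were the lowest among partners of at least 1 FPKM, both at a log2 ratio of -0.92. Chosen after their values were seen, the kinase Mylk and caldesmon (Cald1) stood at 0.32 and 0.31.

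Of 12 non-muscle actin and myosin genes, 4 were lower and 1 was higher, with 7 between and a median of -0.31. That is 33.3% lower and 8.33% higher, beside 19.1% and 14.3% of all tested genes. The whole counting interval lay below 0 for 7 of them and above 0 for 4. Beta-actin (Actb), the cytoplasmic actin, was at 2430.91 FPKM in the fl/fl and 1510.46 FPKM in the AD1KO library, a log2 ratio of -0.69 (interval -0.7 to -0.67). Actg1, the cytoplasmic gamma-actin, stood at 1139.45 FPKM in fl/fl against 777.68 in AD1KO, a log2 ratio of -0.55, while Actg2, its smooth muscle counterpart, had the largest ratio of the 10 genes. The 1 higher gene was the non-muscle heavy chain Myh14, at 1.28 and 2.15 FPKM.

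Of 27 genes that regulate contraction, 29.6% were higher and 3.7% lower, against 14.3% and 19.1% of all tested genes, and their median was 0.29. Several of the 8 higher genes had few reads, and the whole counting interval lay above 0 for only 4 of them. Over the whole list it lay above 0 for 11 genes and below 0 for 7. With a minimum of 1 FPKM in a library the median was 0.18. The phosphatase inhibitor Ppp1r14a (CPI-17) stood at 6.15 FPKM in fl/fl against 9.8 in AD1KO, a log2 ratio of 0.67 (interval 0.11 to 1.24), and the phosphatase targeting subunit Ppp1r12a stood at 10.39 FPKM in fl/fl against 7.77 in AD1KO, a log2 ratio of -0.42. Rhoa, the most abundant of this list, was at 316.59 and 299.95 FPKM. Kcnmb1, chosen after its values were seen, encodes the smooth muscle subunit of the calcium-activated potassium channel, and stood at 0.11 and 0.49 FPKM, with about 8 and 35 reads, a log2 ratio of 2.06 (counting interval 1.01 to 3.46).

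Of 16 tested receptors for contractile agonists, 9 were higher and 3 lower (56.2% and 18.8%, beside 14.3% and 19.1% of all tested genes). Their median of 0.53 became -0.03 with the adipocyte list set equal, a scaling described below. Oxtr, the oxytocin receptor that drives uterine contraction and that adipocytes also express, was the most abundant, at 68.01 FPKM in the fl/fl and 127.13 FPKM in the AD1KO library (log2 ratio 0.9, interval 0.85 to 0.95). The prostaglandin receptors Ptger3 and Ptgfr had log2 ratios of 0.89 and 0.73 and the thromboxane receptor Tbxa2r 0.99, while the serotonin receptor Htr2b stood at -0.99. Adipocytes use several of these receptors, so the list does not mark smooth muscle alone.

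Of 19 tested transcription factors around SRF, 1 was higher and 3 lower, with a median of -0.18. That is 5.26% higher and 15.8% lower, beside 14.3% and 19.1% of all tested genes. Srf, chosen after its values were seen, stood at 10.79 FPKM in fl/fl against 10.02 in AD1KO, a log2 ratio of -0.11 (interval -0.26 to 0.04). Mkl1, a myocardin-related coactivator of SRF, stood at 12.96 FPKM in fl/fl against 8.03 in AD1KO, a log2 ratio of -0.69 (interval -0.84 to -0.54), and Mef2c and Tbx18 were at -0.55 and -0.68. Tead1, which binds the MCAT element, stood at 3.4 FPKM in fl/fl against 4.78 in AD1KO, a log2 ratio of 0.49, and Gata6, a factor of vascular smooth muscle, at 0.38. These are levels of mRNA, not of the activity of the proteins.

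Markers of the other cells that hold or border smooth muscle were read beside the 10 genes. The pericyte and vessel wall list had a median of 0.15 over 18 genes. Of these, 4 were higher and 1 lower (22.2% and 5.56%, beside 14.3% and 19.1% of all tested genes). The summed FPKM of the list was 2290 in fl/fl and 2950 in AD1KO. Most of that sum was gamma-synuclein (Sncg), which adipocytes also express, at 1435.85 and 2019.33 FPKM. The mural markers Rgs5, Pdgfrb and Notch3 were chosen after their values were seen. Their log2 ratios were 0.14, 0.11 and -0.12, the latter pair with intervals that include 0. Other genes of that list differed more. Higher were Higd1b, at 1.21 from about 21 and 48 reads, the adhesion molecule Mcam, at 0.71, Gja4, at 0.6, and Fbln5, at 0.5. Anpep was lower, at 95.74 FPKM in fl/fl against 45.91 in AD1KO, a log2 ratio of -1.06 (counting interval -1.12 to -1.0). The blood endothelial list had a median of 0.28 over 14 genes, with 1 higher (Tie1, 0.5) and 0 lower, or 7.14% and 0.0%. The claudin of endothelial junctions, Cldn5, was at 44.62 and 53.31 FPKM. No gene of either list was at 0.

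The ratio of Actg2, 2.59, was above that of each gene on the pericyte and endothelial lists, of which Higd1b was the highest at 1.21, and so was that of Cnn1, 1.57. Acta2 and Smtn, at 0.44 and 0.37, lay within the range of the endothelial list, -0.36 to 0.5. With the endothelial median set equal in both libraries, a shift of 0.28 on the log2 scale, 7 of the 10 genes still passed 0.5 and their median was 0.75. Under that scaling, the counts over all tested genes were 1295 higher and 5392 lower, against 2265 and 3029 on the deposited scale.

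Mesothelial and adipocyte genes were higher in AD1KO with the contractile genes. Of 10 mesothelial markers, 8 were higher and 0 lower (80.0% and 0.0%, beside 14.3% and 19.1% of all tested genes). Their median was 0.79, and their summed FPKM was 105 in fl/fl and 189 in AD1KO. The defining surface genes Upk3b and Msln were at 30.55 and 64.26 FPKM and at 15.24 and 27.01 FPKM, none of the list being at 0. Of 12 adipocyte markers, 9 were higher and 0 lower, with a median of 0.56 and summed FPKM of 20200 and 30900. The adipsin gene Cfd was the highest, with a log2 ratio of 1.5. Macrophage markers were lower for 11 of 13 (84.6%) and higher for 0, with a median of -1.11 and summed FPKM of 6490 and 2860. The part of these cell types in the ratios of the contractile genes was not tested.

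With the adipocyte median set equal in both libraries, an alternative added after the data were seen that lowers ratios by 0.56, or less for genes near the added 0.01 FPKM, the log2 ratio of Acta2 was -0.12, that of Smtn -0.19 and that of Myocd -0.09. The other 7 genes stayed above 0 and 5 of the 10 passed 0.5, namely Actg2 at 2.03, Cnn1 at 1.01, Synpo2 at 0.64, Tagln at 0.62 and Des at 0.60. Counts over all tested genes were then 836 higher and 9459 lower. The medians of the contractile partner, contraction signalling, endothelial and pericyte lists, all above 0 but under 0.5 on the deposited scale, lie below 0 after this shift.

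**Figure D3:**
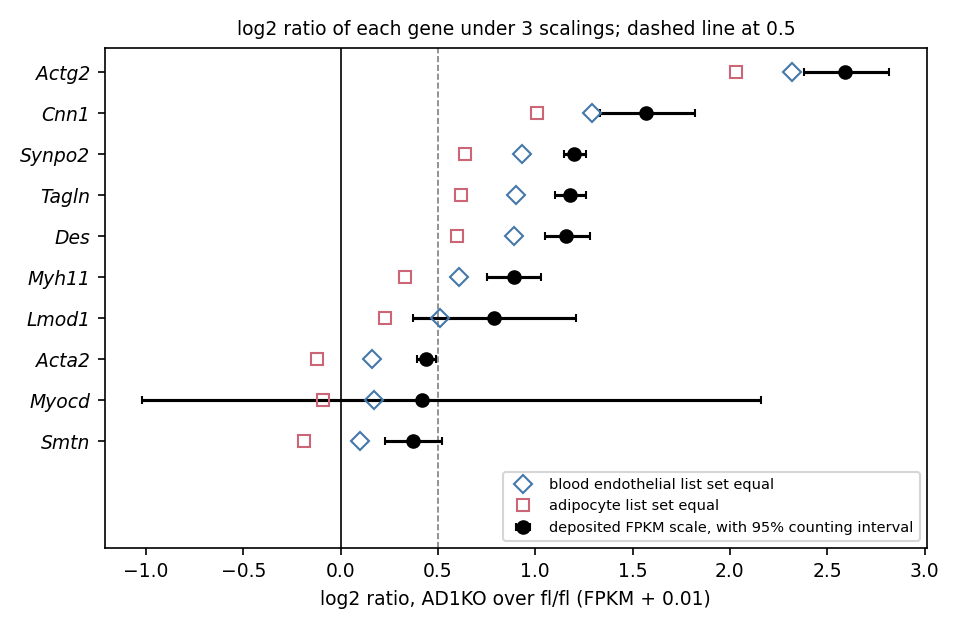
log2 ratio of AD1KO over fl/fl for the 10 genes on the deposited FPKM scale (black, with 95% counting interval), and with the blood endothelial (blue diamonds) or adipocyte (red squares) median set equal in both libraries. Actg2, Cnn1, Synpo2, Tagln and Des lie past 0.5 under each of the 3 scalings. Acta2, Smtn and Myocd fall below 0 with the adipocyte list set equal.

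Of 14 stromal fibroblast genes, 1 was higher and 3 lower (7.14% and 21.4%, beside 14.3% and 19.1% of all tested genes), with a median of 0.04, and Ly6a had the lowest log2 ratio, -1.31. The myofibroblast list had a median of -0.16 over 14 genes, with 2 higher and 4 lower (14.3% and 28.6%). Tgfb1, the growth factor that drives myofibroblast conversion, stood at 101.11 FPKM in fl/fl against 56.35 in AD1KO, a log2 ratio of -0.84. Acta2 and Tagln stand on this list as well as among the 10 genes.

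Genes of the female reproductive tract were lower in AD1KO for 8 of 12 tested, and higher for 2. That is 66.7% lower and 16.7% higher, beside 19.1% and 14.3% of all tested genes. Their median was -1.33. Pax8 and Sprr2f were listed at 0 in AD1KO, from about 11 and 2 reads in fl/fl. With Pax8 placed at the bound that 3 reads give and Sprr2f left out, the median was -0.62. It was -0.44 over genes of at least 1 FPKM and -0.31 with 1 FPKM added to each value, and the whole counting interval lay below 0 for 5 of the 8 lower genes. Pax8 and Sprr2f are named after their values were seen. The oviduct glycoprotein gene Ovgp1 was at 3.51 and 0.17 FPKM and lactotransferrin (Ltf) at 5.09 and 0.2 FPKM. The higher ones were Hoxa10, a patterning gene of the uterus, at 5.74 and 11.42 FPKM, and Oxtr. The summed FPKM of the list, 93.5 and 145, was mostly Oxtr. Adipocytes also express Oxtr, so the list does not mark the reproductive tract alone. The part of such tissue in the ratios of Actg2 and the other contractile genes was not tested.

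**Figure D4:**
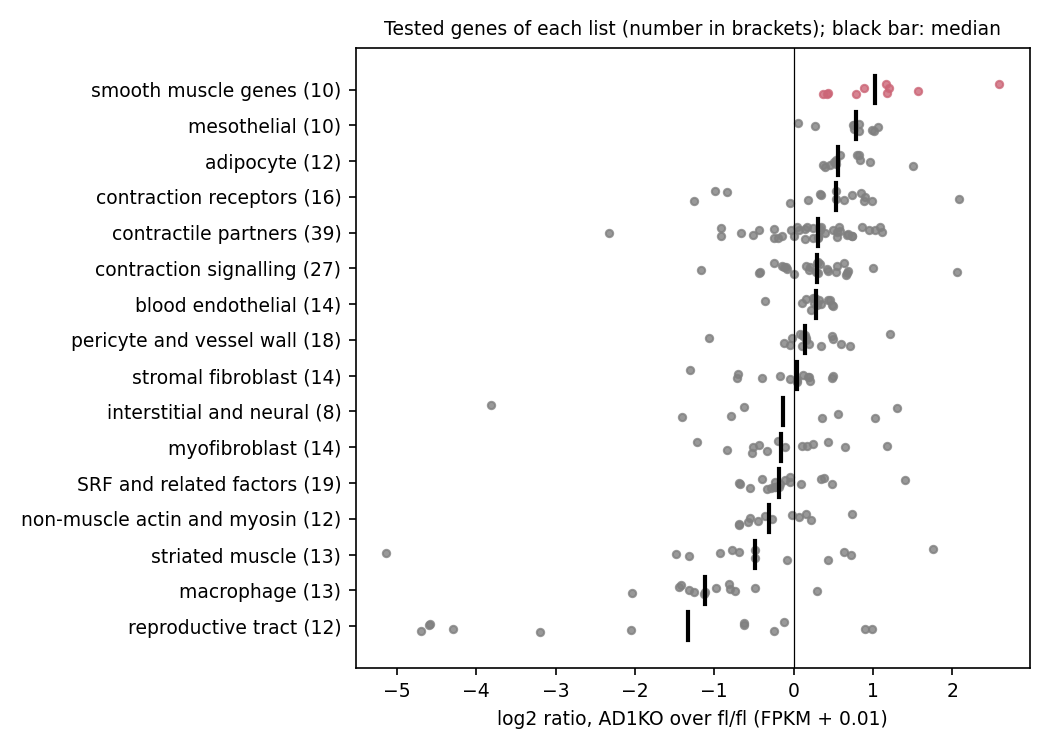
log2 ratio of AD1KO over fl/fl for every tested gene of the 10 smooth muscle genes (red) and of 15 further lists (grey), ordered by median (black bar), with the number of genes in brackets. The 10 genes have the highest median, 1.03, followed by the mesothelial list at 0.79 and the adipocyte list at 0.56. They and the lists were chosen with earlier results of these data known, so nothing is read from this order. Ratios of genes listed at 0 in a library depend on the added 0.01 FPKM.

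Gene Ontology terms in the deposited table were given for 6 of the 10 genes, and Acta2, Actg2, Tagln and Cnn1 had none. Smtn, Lmod1 and Synpo2 are annotated with actin binding, a term under which 12.4% of 202 tested genes were higher and 24.8% lower. Des and Synpo2 are annotated with the Z disc, the striated muscle counterpart of the dense body, and there 26.7% of 75 tested genes were higher and 8.0% lower. Under smooth muscle contraction, which none of the 10 genes carries in this table, 1 of 7 tested genes was higher and 2 were lower. Over all tested genes, 14.3% were higher and 19.1% lower.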

How the data were processed

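Total RNA of gWAT was sequenced by the authors' provider after enrichment of mRNA, with 1 library from 4 pooled animals per group. The authors' provider mapped filtered reads to the mm9 build of the mouse genome. The submitters' processing notes also name mm10, with no role given. The aligner and the program that quantified expression are not given in the sources used here. The authors deposited FPKM and the transcript length of each gene. The header does not name the unit, which was read from the values. A value of 0.01 was taken to stand for 0, which is an assumption. Deposited columns of fold change, P-value and FDR hold the authors' own comparison and were not used.

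Values of 0.01 were set to 0, 0.01 FPKM was added to every value, and AD1KO was divided by fl/fl on the log2 scale. A gene was tested, that is, compared with a log2 threshold of 0.5, when either library reached 0.1 FPKM, which 15839 of 17335 did. Depth and a length correction of 117 bases were fitted so that low FPKM values fall on whole reads. Of 521 such values in fl/fl, 79.3% lay within 0.15 of a whole number, and of 524 in AD1KO 78.1%, where even spacing gives 30%. Counting intervals are Clopper-Pearson intervals for ratios, Poisson intervals for levels and normal intervals on the log scale for shares within a family. Reads carry no molecular identifiers, so they cover counting error only. On simulated libraries of 15686 genes the interval held the true ratio for 96.0% of genes and 97.5% of 200 genes changed on purpose were recovered. These libraries held Poisson counting error only, and every planted change was larger than the 0.5 threshold. The simulation thus checks the calculation and says nothing of the spread between animals.

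The 10 genes and the lists were chosen with earlier results of these data known. Named genes were, for each list, the most abundant and up to 6 of the largest absolute ratios among genes of at least 1 FPKM, and others are marked as chosen after their values were seen. No p-value was computed. Gene positions are from GENCODE vM1 on mm9. Computing was done in Python 3.11.15 with SciPy 1.17.1, NumPy 2.4.6 and pandas 2.3.3, and plots were drawn with Matplotlib 3.10.9.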

Additional observations from a re-analysis of the deposited data

How the results depend on the processing

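No paired analysis was possible because each group has a single library, made from pooled RNA, and leaving out a replicate could not be done either. The median log2 ratio of the 10 genes, 1.03, was 0.88 with the pericyte and vessel wall list set equal, 0.75 with the blood endothelial list and 0.47 with the adipocyte list, the last added after the data were seen. The counts of the 10 genes stayed between 5 and 8 higher and at 0 lower under every alternative. Over all tested genes, 2265 higher became 1295 (endothelial), 836 (adipocyte), 965 with a pseudocount of 1 FPKM, 1281 with a minimum of 1 FPKM, 910 at a threshold of 1 and 666 with the whole counting interval past 0.5. The 3029 lower genes became 5392 (endothelial), 9459 (adipocyte), 1661 (pseudocount of 1 FPKM), 1417 (threshold of 1) and 1317 (whole interval). These follow from the construction of each alternative. The median of the contraction receptors, 0.53, was -0.03 with the adipocyte list set equal. Single genes of the 10 were above 0 in 106 of 109 values, the exceptions being Acta2, Smtn and Myocd under that scaling. It alone lowers ratios by more than 0.37, the smallest of the 10, and filters and pseudocounts cannot change a sign. That count is therefore no measure of robustness. Allowing 1 mismatch in the CArG box in place of 0 raised the promoters holding it from 0 to 2 of 6. Depth limits Myocd, with about 7 and 10 reads.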

Other observations

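Of 13 tested striated muscle genes, 3 were higher and 6 lower in AD1KO (23.1% and 46.2%, beside 14.3% and 19.1% of all tested genes). The counting interval included 0 for all 6 lower genes, which had at most 22 reads in a library, and for Ckm and Mb among the 3 higher ones. Skeletal actin (Acta1), the most abundant, stood at 41.88 FPKM in fl/fl against 39.7 in AD1KO, a log2 ratio of -0.08 (counting interval -0.21 to 0.05). The next genes except parvalbumin (Pvalb) were chosen after their values were seen. The skeletal myosin heavy chains Myh1 and Myh4 were at or under 0.03 FPKM in both libraries, and the muscle creatine kinase Ckm was at 0.13 and 0.22 FPKM. The myosin light chain Myl1 was at 29.04 and 39.4 FPKM and Pvalb at 26.62 and 19.1, so a few skeletal muscle genes were abundant where others were near 0.

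Among genes of interstitial and neural cells, 3 of 8 tested were higher and 4 lower, with a median of -0.13. The chloride channel gene Ano1, which pacemaker cells of visceral muscle and vascular smooth muscle express, stood at 1.92 FPKM in fl/fl against 3.91 in AD1KO, a log2 ratio of 1.02 (interval 0.75 to 1.32). Kit, the other known marker of those pacemaker cells and of mast cells, stood at 2.08 FPKM in fl/fl against 1.35 in AD1KO, a log2 ratio of -0.62 (interval -0.97 to -0.29).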
